A study of Rattus norvegicus with 36 samples.

Results

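Kidney gene expression was compared between 3 rats given alpha melanocyte stimulating hormone (αMSH) at the time of renal ischemia and 4 rats with ischemia alone, all studied 2 h after reperfusion. These 7 rats, with 1 array each, were selected by the labels from 31 rats on 36 arrays. All were male rats aged 6 to 8 weeks, in which the blood supply of both kidneys was stopped for 40 min. The αMSH rats received 50 µg of the peptide by vein, a step that the labels list between the ischemia and the reperfusion, and the labels name no vehicle injection for the other rats. Normal rats 1 to 3, untreated and of the same sex and age, served as the background for both groups, and 3 rats studied 8 h after the same ischemia were used to choose genes of the later response. A portion of each kidney was extracted, so every value is a mean over the cell types in that portion. The strain is not given in the sources used here.

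Alpha melanocyte stimulating hormone is cut from the precursor proopiomelanocortin and acts on melanocortin receptors, which couple to cyclic AMP. It is known for damping inflammatory signalling, including that of the transcription factor NF-κB, and for lessening ischemic kidney injury. Early after reperfusion the kidney is known to switch on immediate early genes, heat shock genes, chemokines for neutrophils and the adhesion molecules that let leukocytes stick to vessel walls. The comparison asks how far the peptide altered that early response.

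The platform was the CodeLink array, on which 1 biotin-labelled RNA is read by 9911 probes, here with 6444 gene symbols. Levels below are intensities as multiples of the array's own median, with a floor at 0.1, and differences are αMSH rats minus ischemia rats on the log2 scale with the standard error (SE) from limma, fitted to all rats together. The 7 arrays had 70 to 119 missing probes and 8.43% to 11.8% of probes at the floor. Kidney identity was clear from proximal tubule genes such as Lrp2, the endocytic receptor megalin, at 41.3 to 55.7 in the 7 rats, and from Umod, made in the thick ascending limb, at 37.8 to 56.3. In normal rats 1 to 3 Umod stood at 8.17, 56.2 and 73.7, and the source of that spread was not tested. The adrenal enzyme gene Cyp11a1 lay at 0.1 to 0.111 in the 7 rats. No label ties an array to 1 of the 2 array lots, and the 7 arrays and those of normal rats 1 to 3 were taken to be of the same lot.

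Within each treatment group, the arrays lay on 2 sides of a contrast between repeated arrays. The contrast parted the 2 arrays of the same rat in both 8 h ischemia rats that had 2 arrays. Each of those arrays was made from a separate aliquot of the rat's RNA. Every array was scored by correlation with this contrast, after its group's own mean was subtracted. Scores of both signs within a group therefore follow from the method, and a shift of a whole group would not show. The differences between the paired arrays of those 2 rats correlated at 0.433 over 9303 probes, a description across probes. Ischemia rats 1 and 2 and αMSH rat 3 had scores of -0.368, -0.332 and -0.463. Ischemia rats 3 and 4 and αMSH rats 1 and 2 had scores of 0.344, 0.328, 0.215 and 0.292. The 2 arrays of normal rat 2, at -0.169 and -0.27, were not parted by this contrast. The 7 rats have 1 array each, so a difference between arrays and one between animals along this contrast cannot be told apart in them.

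The spread between rats was set out by array side and by treatment. The sides were taken from these same values, so a smaller spread within a side is partly built in and cannot be weighed against treatment. Over the tested probes, the SD of the log2 difference between 2 rats on the same side was 0.292 to 0.359, with a median of 0.323 over 9 pairs. For 2 rats on opposite sides it was 0.355 to 0.418, with a median of 0.39 over 12 pairs. Pairs within the αMSH group had 0.333 to 0.37 and pairs within the ischemia group 0.292 to 0.397, while the 12 pairs of an αMSH rat with an ischemia rat had 0.297 to 0.418. The 6 pairs of different treatment on the same side, at 0.297 to 0.359, all lay below the 4 pairs of ischemia rats on opposite sides, at 0.379 to 0.397. The 2 pairs of αMSH rats on opposite sides were at 0.355 and 0.37, and the lower of these lay within that same-side range.

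**Figure D1:**
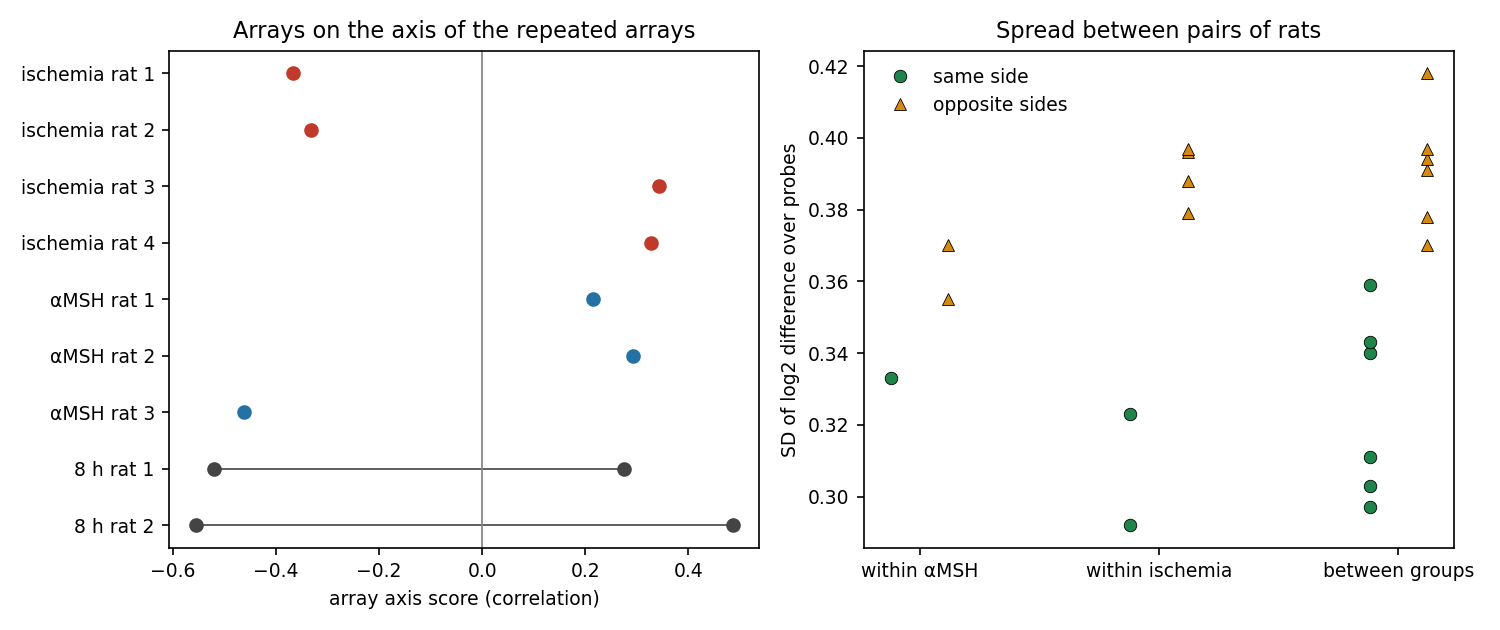
The left panel gives the score of each array (horizontal axis, a correlation from -1 to 1) for the 4 ischemia rats (red), the 3 αMSH rats (blue) and the 2 arrays of each 8 h rat that define the axis (grey, joined). The right panel gives the SD over probes of the log2 difference for each pair of the 7 rats, with circles for pairs on the same side and triangles for pairs on opposite sides, where circles of different treatment lie between 0.297 and 0.359.

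With αMSH against ischemia alone, 0 of 9458 tested probes (0%) passed at 0.05 after Benjamini-Hochberg adjustment of limma's p-values, and the smallest adjusted p was 0.703. At an unadjusted p under 0.05 there were 342 probes, or 3.62%, of which 165 were higher (1.74%) and 177 lower (1.87%). This count moved with the spread behind the SE, which is pooled over all rats of the series. It was 542 with the 7 rats fitted alone and 817 with the array side added to that fit. With sham rat 3 as deposited it was 62. The share of 3.62% therefore depends on the fit and does not show less signal than chance. The median difference was -0.006, with 45.1% of probes higher. The data also bound the effect: the 95% interval lay within 2-fold in either direction for 8956 probes (94.7%) and within 1.5-fold for 7007 (74.1%). The estimate exceeded 2-fold for 20 probes higher and 14 lower. Of 9356 probes measured in all 7 rats, 284 (3.04%) were higher in every αMSH rat than in every ischemia rat and 350 (3.74%) were lower in every one, the shares against which the gene counts below are to be read. Without αMSH rat 3 there were 2 calls, both of unnamed probes, and without ischemia rat 3 there was 1, the gene Selp. Fitted with the 7 rats alone there was 1 call, an unnamed probe. The αMSH rats of each side were also compared with the ischemia rats of the same side, αMSH rats 1 and 2 with ischemia rats 3 and 4 and αMSH rat 3 with ischemia rats 1 and 2. These 2 sets of differences share no animal, and they had the same sign for 58.9% of 9356 probes and a correlation across probes of 0.15.

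A response to the operation with ischemia was seen in both groups. Against normal rats 1 to 3, 697 of 9468 probes (7.36%) were called higher and 698 (7.37%) lower after ischemia alone, and 631 of 9435 (6.69%) higher and 624 (6.61%) lower after ischemia with αMSH, by adjusted p under 0.05 in limma. Both sets of values rest on the same normal rats. Those rats were untreated, and the only sham group of the series belongs to 8 h. Effects of surgery and handling are thus not separated from those of ischemia in any change from normal given here. Without normal rat 1 the αMSH count of 1255 was 790, and without αMSH rat 1 it was 784. The even balance of higher and lower calls did not hold under every setting. Without normal rat 1 the calls were 656 higher and 352 lower after ischemia alone and 556 and 234 with αMSH, and with the groups compared alone they were 491 and 224 with αMSH. Of the immediate early genes, which answer a stimulus within minutes, 15 of 16 tested rose in each group and none was called between them. Fos, a subunit of the AP-1 transcription factor, stood at 66.4, 79.5 and 74.9 in the αMSH rats and at 81.8, 75.6, 75.6 and 85.2 in the ischemia rats, against 0.879 to 1.31 in normal rats. The Fos groups overlapped, with a difference of -0.11 ± 0.66, and both groups lay far above normal. With the 7 rats fitted alone the Fos SE was 0.10. The inducible chaperone Hspa1a stood at 79.2, 108 and 79.6 against 91.4, 88.7, 99.6 and 97, with normal rats at 1.28 to 1.65. For Hspa1a the difference was -0.10 ± 0.32, and αMSH rat 2 was the highest of the 7. With quantile normalization the difference turned to 0.09 for Hspa1a and 0.03 for Fos, so neither has a direction. Hmox1, the heme oxygenase induced by oxidative stress, rose by 3.42 ± 0.28 without and 3.73 ± 0.29 with the peptide over normal rats.

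**Figure D2:**
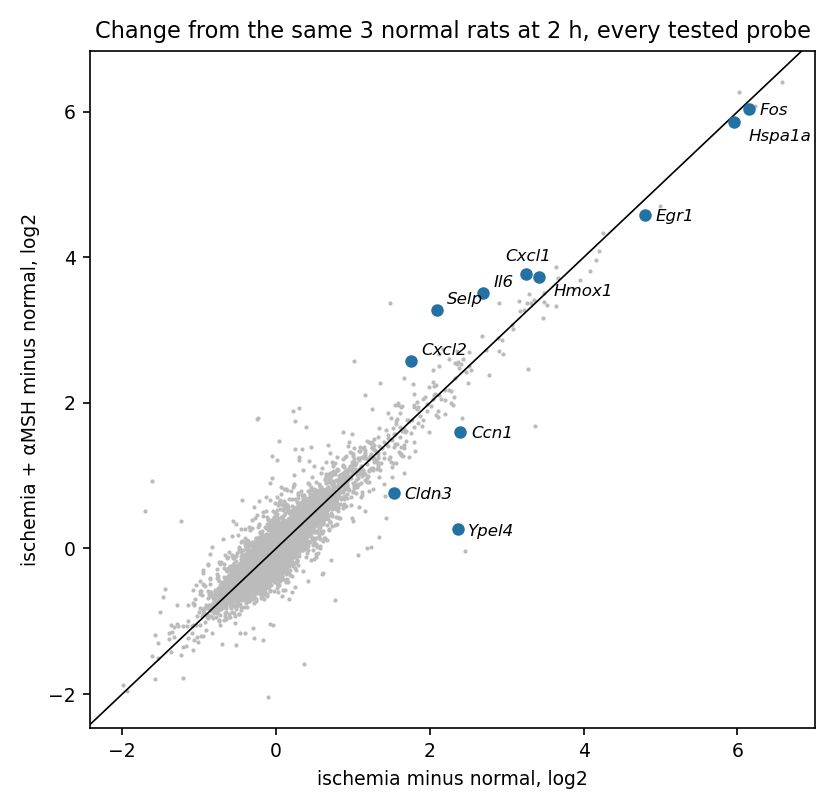
Each grey point is a probe, with its log2 change from normal rats 1 to 3 after ischemia alone on the horizontal axis and after ischemia with αMSH on the vertical axis; the line marks equal change and blue points are named genes. Fos and Hspa1a lie near the upper end of the line, while Selp and Cxcl2 lie above it and Ccn1, Cldn3 and Ypel4 below it; the axes share their normal rats.

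Genes of the later injury response, chosen in the 8 h rats without use of the 7 rats, were compared at 2 h. Of 99 genes that rose at least 4-fold at 8 h, 48 were higher and 51 lower with αMSH, with a median difference of -0.01, and 75 had an interval within 2-fold. The 24 genes that fell at least 4-fold at 8 h were split 12 and 12. The wider sets were less even. Of 474 genes that rose at least 2-fold, 194 were higher and 280 lower with αMSH, with a median difference of -0.04. Of 378 genes that fell at least 2-fold, 217 were higher and 161 lower, with a median of 0.03. Over all tested probes 45.1% were higher and 54.7% lower. Lcn2, a secreted marker of tubular injury, stood at 1.73, 1.24 and 1.18 with αMSH and at 0.99, 0.988, 1.38 and 1.73 without, with overlapping groups. Havcr1, the tubular injury molecule Kim-1, stood at 0.714 to 1.25 with αMSH and at 0.669 to 1.21 without, and had not risen over normal rats (0.411 to 1.38) in either group at this time. S100a9, a calcium-binding protein of neutrophils, stood at 2.38, 2.83 and 1.78 with αMSH and at 2.31, 2.88, 2.81 and 2.4 without, against 0.189 to 0.29 in normal rats. The receptor of urokinase, Plaur, rose by 3.27 and 3.37 and differed by 0.11 ± 0.20. A second, dimmer Plaur probe gave 0.36 ± 0.16, higher in every αMSH rat than in every ischemia rat. The sulfiredoxin Srxn1 rose by 3.67 and 3.72 and differed by 0.05 ± 0.27. Akr1b8, an aldo-keto reductase, had the widest spread of the 12 genes that rose most at 8 h, with 3.23, 0.512 and 0.469 against 1.52, 2.28, 3.48 and 2.73 and a difference of -1.38 ± 0.94.

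The melanocortin genes themselves gave little to see on this array. Of 14 genes of the system listed, 5 had a probe and 4 were tested. The receptor Mc5r lay at the floor in 6 of the 7 rats and at 0.103 in ischemia rat 3. Atrn, the attractin gene that modifies melanocortin signalling, differed by -0.15 ± 0.13, the prohormone convertase Pcsk2 by -0.13 ± 0.15 and the carboxypeptidase Cpe by -0.04 ± 0.20. All 3 intervals lay within 1.5-fold. Of 11 genes regulated through cyclic AMP, 8 rose over normal in each group, 4 were higher and 7 lower with αMSH, and none was called. Sik1, a kinase induced by cyclic AMP, was the one that parted the groups, at 1.8, 1.93 and 2.85 against 1.72, 1.52, 1.04 and 1.64. Every αMSH rat lay above every ischemia rat, by 0.57 ± 0.30, and normal rats were at 0.266 to 0.357. Without αMSH rat 3 the difference was 0.36. Areg, a growth factor of the EGF family, had the largest difference the other way, -0.63 ± 0.48, with overlapping groups, and -0.40 without ischemia rat 4.

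Adhesion molecules and chemokines of the early inflammatory response were split with αMSH, and none was called. Of the 12 adhesion genes tested 7 were higher and 5 lower, and of the 17 chemokines 8 were higher and 9 lower. The 5 count Madcam1, which lay at the floor in all 7 rats and had no difference. The members that differed most are given first. P-selectin (Selp), which tethers leukocytes to activated endothelium, stood at 1.04, 1.36 and 0.868 with αMSH and at 0.408, 0.337, 1.6 and 0.225 without, against 0.1 to 0.136 in normal rats. Of the ischemia rats, 3 lay below every αMSH rat and rat 3 lay above them all. The difference was 1.18 ± 0.37 with an adjusted p of 1.0 in limma, and 1.77 with an adjusted p of 0.000155 without ischemia rat 3. Each of the 7 rats was left out in turn, and Selp was not called in the other fits. Its difference was 0.82 without ischemia rat 4 and 1.01 without αMSH rat 2. E-selectin (Sele), the second endothelial selectin, stood at 0.877, 1.06 and 0.803 against 0.465, 0.324, 1.03 and 0.346, a difference of 0.91 ± 0.29. Its pattern was the same, with ischemia rat 3 among the αMSH rats and the other ischemia rats below. The Sele difference was 1.28 without ischemia rat 3, 0.72 without ischemia rat 2 and 0.80 without αMSH rat 2, and none of these was called. On the 2 array sides the difference was 0.98 and 1.23 for Selp and 0.69 and 1.05 for Sele. Icam1, the endothelial ligand of leukocyte integrins, rose over normal in both groups, by 0.88 ± 0.13 and 0.96 ± 0.14, and its groups overlapped. Glycam1, which encodes a selectin ligand, had the largest difference of the adhesion genes that were lower, at -1.68 ± 0.58. It was missing in αMSH rat 1 and ischemia rat 3, and stood at 0.63 and 0.531 against 0.7, 1.24 and 7.36, and without ischemia rat 4 the difference was -0.69. The median of the 12 adhesion genes was 0.01, and 5 rose and 1 fell over normal in each group.

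Among chemokines, Cxcl2, which draws neutrophils, was the 1 of 17 tested whose groups parted. It stood at 0.525, 0.871 and 0.511 with αMSH and at 0.227, 0.376, 0.498 and 0.348 without, with normal rats at 0.1 to 0.11. The difference was 0.82 ± 0.22 with an adjusted p of 0.769 in limma, and the gap between the nearest rats of the groups, 0.511 and 0.498, was small. Its neighbour Cxcl1, with the same attractant role, stood at 3.04, 4.62 and 2.3 against 1.42, 2.13, 5.15 and 1.52. For Cxcl1 the difference was 0.53 ± 0.44, or 0.94 without ischemia rat 3 and 0.26 without αMSH rat 2, and ischemia rat 3 was again the highest of the 7. Ccl4, an attractant for macrophages and lymphocytes, stood at 1.42, 3.5 and 0.786 against 0.361, 0.268, 2.58 and 0.687, a difference of 1.29 ± 0.52. Without ischemia rat 3 that difference was 1.96, and without αMSH rat 2 it was 0.71. Ccl2, the monocyte attractant, differed by 0.35 ± 0.60. Of the other chemokines Ccl20 was highest in ischemia rat 3, at 4.54, and differed by -0.27 ± 0.42. The median of the 17 was -0.02, and 6 rose and 1 fell against normal rats in each group. The cytokine Il6 stood at 1.97, 3.07 and 1.12 against 0.775, 1.11, 2.32 and 0.667, with a difference of 0.82 ± 0.36 and groups that overlapped through ischemia rat 3. Without that rat it was 1.19, and without αMSH rat 2 it was 0.47. Tnf, the early inflammatory cytokine, stayed at 0.959 to 1.27 in all 7 rats and near the normal 0.869 to 1.19. Nos2, the inducible nitric oxide synthase, lay at the floor in every one of these rats.

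**Figure D3:**
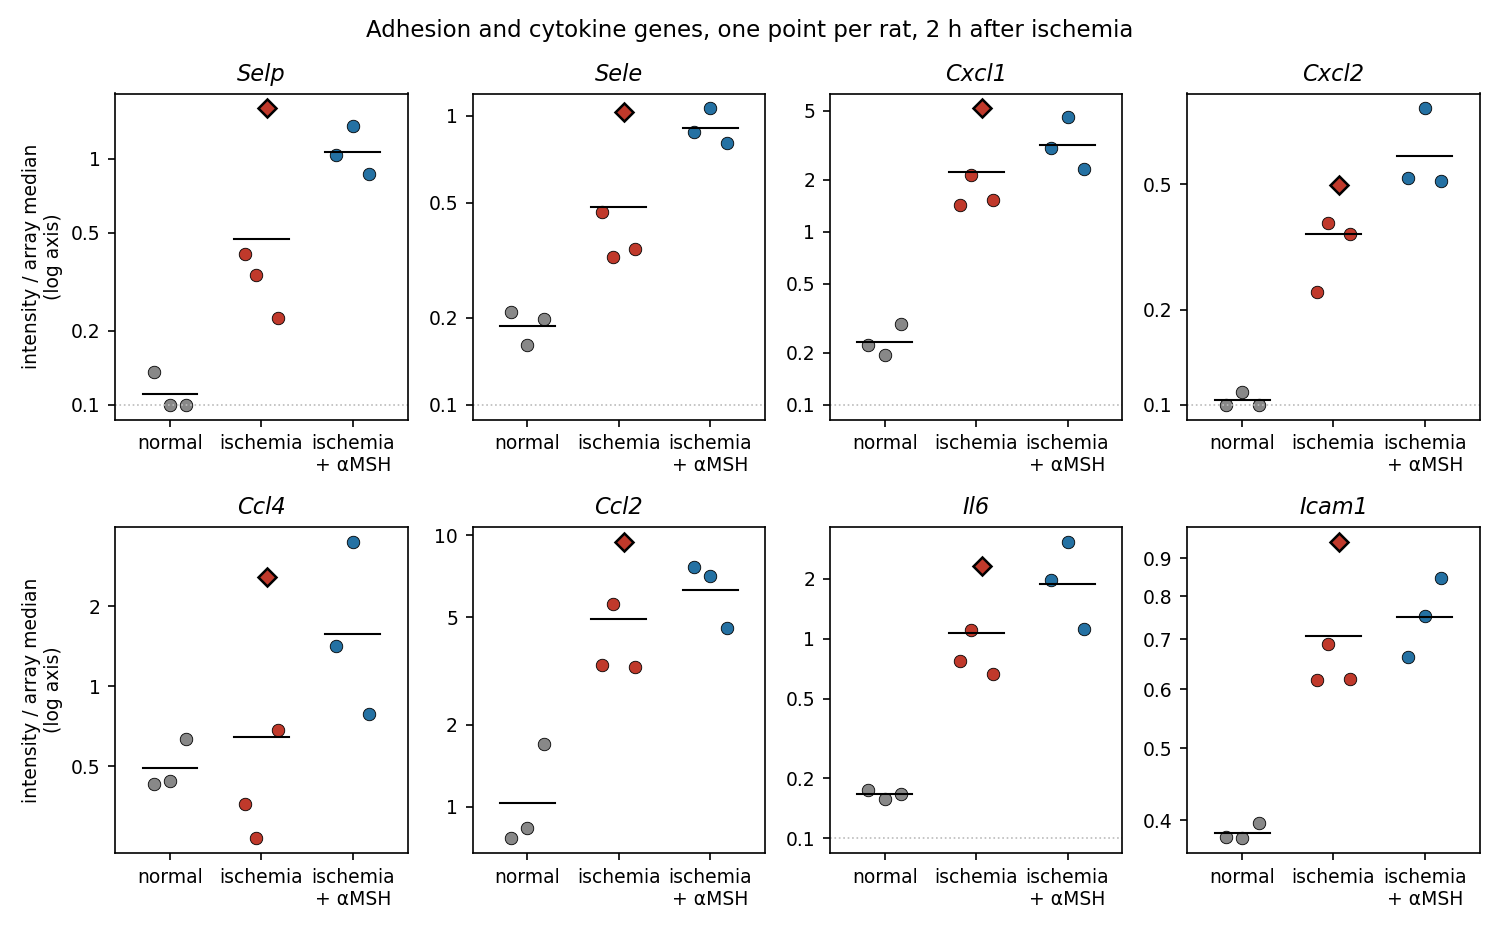
Levels of 8 adhesion and cytokine genes, 1 point per rat, for normal rats 1 to 3 (grey), ischemia rats (red, with ischemia rat 3 as a diamond) and ischemia rats with αMSH (blue), as multiples of the array median on a log axis. The line is the mean of log2 values and the dotted line the floor of 0.1; the diamond lies with or above the αMSH points in each panel but that of Cxcl2, where it is just below them.

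Blood cell and vessel markers were measured beside these genes. Of 16 leukocyte markers 5 were higher and 11 lower with αMSH, the 11 counting Cd4, which had no difference. Their summed level was 59.1 to 70.8 in αMSH rats and 66.6 to 79.9 in ischemia rats. Ptprc, the common leukocyte antigen, stood at 0.358 to 0.446 with αMSH and 0.362 to 0.463 without, and Cd4 was at the floor in all 7. The summed level of 7 endothelial markers was 17.2 to 19.8 and 17.0 to 19.0. The 5 tested genes of NF-κB and its feedback, which is known to drive many of the genes above, were all within 0.11 of no difference, and 4 of them rose over normal in each group. Ischemia rat 3 also had the highest Irf1, an interferon-responsive factor, at 4.58 against 2.18 to 3.12 in the other ischemia rats and 2.48 to 3.47 in the αMSH rats. Its Clu, a secreted chaperone of injured tubules, was at 6.91 against 2.9 to 3.7 in the other ischemia rats and 4.08 to 5.79 in the αMSH rats. Irf1 was singled out after its values were seen.

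The promoters of the neighbouring genes Cxcl2 and Cxcl1 are shown because both chemokines rose strongly after ischemia in each group, by 1.76 ± 0.22 and 3.25 ± 0.44 without and 2.58 ± 0.23 and 3.78 ± 0.47 with αMSH. They come from RefSeq on assembly GRCr8, 250 bases before to 50 after the start, at chr14:17467206-17467505 and chr14:17479272-17479571, both on the minus strand. Capitals mark each match to a loose form of the NF-κB site, GGG and CC parted by any 5 bases, on either strand. Matches overlap one another, and 47.3% of 33469 promoters of this length hold at least 1. With a promoter available, 8 of 13 genes of the chemokine list and 7 of 10 of the cell division list below hold at least 1. No measurement here bears on binding at these letters.
Cxcl2: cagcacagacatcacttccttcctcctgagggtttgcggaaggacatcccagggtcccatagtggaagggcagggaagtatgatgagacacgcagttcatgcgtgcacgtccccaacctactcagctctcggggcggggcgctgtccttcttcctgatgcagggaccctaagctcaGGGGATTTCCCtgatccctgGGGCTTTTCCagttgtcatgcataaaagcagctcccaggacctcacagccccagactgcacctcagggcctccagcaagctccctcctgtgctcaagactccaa
Cxcl1: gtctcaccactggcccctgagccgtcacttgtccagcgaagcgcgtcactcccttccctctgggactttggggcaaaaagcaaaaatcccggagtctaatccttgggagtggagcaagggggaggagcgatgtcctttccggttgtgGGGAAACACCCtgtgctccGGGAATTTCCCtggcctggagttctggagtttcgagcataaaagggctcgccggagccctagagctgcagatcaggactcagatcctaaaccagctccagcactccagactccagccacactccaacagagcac

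Among the lists, the median farthest from 0 was that of genes of cell division. The lists were chosen with earlier results of these data known, so this standing is a description and no independent support. Of 13 tested genes, 11 were lower with αMSH and 2 higher, with a median of -0.31 beside -0.006 over all probes. The 11 count Cdk4, which lay at or just above the floor in every rat of the 7 where it was measured. Of the 12 measured in all 7 rats, 6 were lower in every αMSH rat than in every ischemia rat, where 3.74% of all probes were. None was called, and 3 had an unadjusted p under 0.05, all lower. Cdk1, the kinase that drives entry into mitosis, stood at 1.38, 1.43 and 1.42 with αMSH and at 2.06, 2.53, 2.29 and 2.18 without. The αMSH values were close together and below every ischemia rat, a difference of -0.68 ± 0.23 with an adjusted p of 1.0 in limma. A second Cdk1 probe gave -0.60 ± 0.26, again with no overlap. Its partner cyclin Ccna2 stood at 0.476, 0.506 and 0.535 against 0.723, 0.992, 0.689 and 0.692, a difference of -0.60 ± 0.23. Cdkn3, a phosphatase that acts on cyclin-dependent kinases, stood at 0.238, 0.223 and 0.282 against 0.415, 0.377, 0.4 and 0.313, a difference of -0.60 ± 0.17. The proliferation antigen Mki67, the mitotic kinase Aurkb and the thymidylate synthase Tyms were also lower in every αMSH rat, by 0.46, 0.40 and 0.31. Pcna, the DNA polymerase clamp, overlapped at 3.6 to 4.31 against 3.87 to 6.39, and the cell cycle inhibitor Cdkn1b differed by 0.40 ± 0.38 the other way, or by 0.15 without ischemia rat 1.

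Further mitosis genes stood among the genes lower in all αMSH rats, where they had been named for their difference. Prc1, which bundles microtubules of the dividing spindle, stood at 2.46, 2.7 and 3.11 against 4.31, 4.68, 3.72 and 4.13, a difference of -0.61 ± 0.19. Spc24 and Spc25, both subunits of the Ndc80 kinetochore complex, differed by -0.56 ± 0.26 and -0.56 ± 0.23. On the 2 array sides the difference was -0.67 and -0.69 for Cdk1, -0.49 and -0.66 for Ccna2 and -0.62 and -0.49 for Cdkn3, and 10 of the 13 list genes were lower on both sides. Relative to normal rats 1 to 3 the list median was 0.13 after ischemia alone and -0.08 with αMSH, values that depend on normal rat 1. After ischemia alone 2 of 13 genes rose, Cdkn3 and Pcna, and after ischemia with αMSH 0 of 13 were called, with 0 lower. The normal rats were themselves far apart in these genes, with Cdk1 at 3.29, 1.9 and 1.44, a spread that enters the pooled SE. In Cdk1, Ccna2, Mki67 and Aurkb every ischemia rat lay above normal rats 2 and 3 and below normal rat 1. Tyms did not show this. With the 7 rats alone the Cdk1 SE was 0.10 and its adjusted p was 0.234 in limma. The summed level of the 12 genes was 7.77 to 8.88 in αMSH rats and 10.2 to 12.2 in ischemia rats. Of the 16 leukocyte markers 11 counted as lower, with Cd4 at the floor among them, and Lyz2 and Tyrobp were lower in every αMSH rat. The part of leukocytes in this was not tested. In a kidney portion of mixed cell types, fewer dividing cells and less RNA per cell cannot be told apart.

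**Figure D4:**
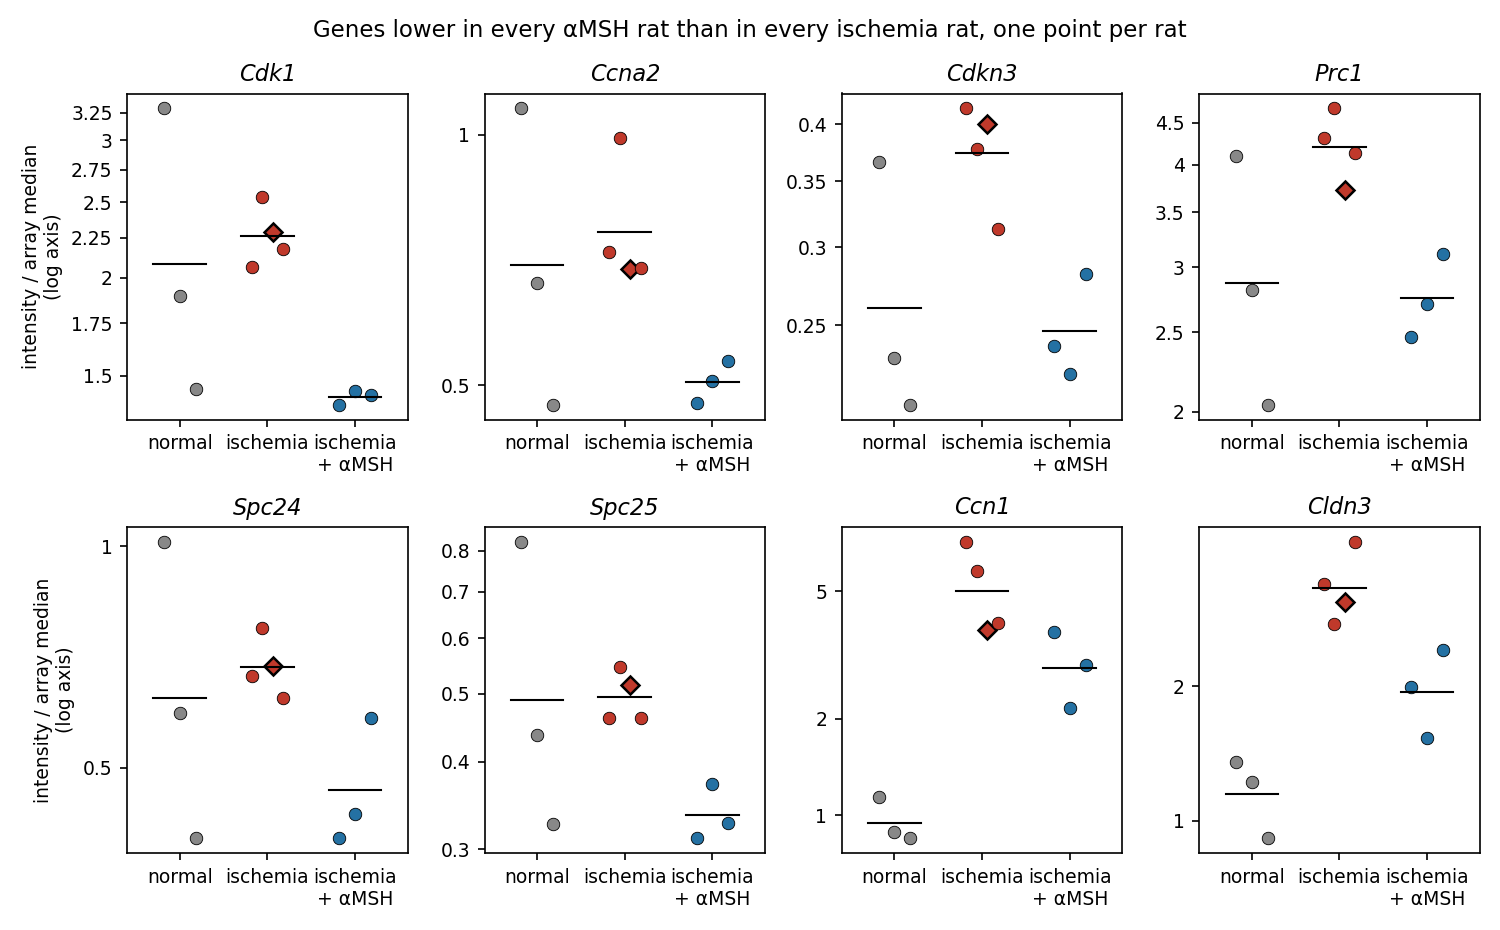
Levels of 8 genes that were lower in each of the 3 αMSH rats (blue) than in each of the 4 ischemia rats (red, ischemia rat 3 as a diamond), with normal rats 1 to 3 in grey, as multiples of the array median on a log axis with the mean of log2 values as a line. Normal rat 1 lies above the other normal rats in all 6 cell division genes, and in Ccn1 and Cldn3 both ischemic groups lie above normal.

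Promoters of 3 genes lower with αMSH are shown as examples, Cdk1 from the list and Prc1 and Spc25 from outside it. They come from the same RefSeq set, Cdk1 at chr20:19265043-19265342 on the plus strand, Prc1 at chr1:143659231-143659530 on the plus strand and Spc25 at chr3:74396669-74396968 on the minus strand. Capitals mark CCAAT, the box bound by NF-Y, and TTTGAA, the core of the cell cycle genes homology region, each searched on both strands (ATTGG and TTCAAA), with no overlap between them. Across all 33469 promoters 37.5% hold CCAAT, 18.3% TTTGAA and 7.41% both. Of 10 cell cycle list genes with a promoter in the table, 7 hold CCAAT and 4 TTTGAA. The 3 promoters shown all hold both, and the share of list genes with both was not counted. A match describes the letters and does not show a working site.
Cdk1: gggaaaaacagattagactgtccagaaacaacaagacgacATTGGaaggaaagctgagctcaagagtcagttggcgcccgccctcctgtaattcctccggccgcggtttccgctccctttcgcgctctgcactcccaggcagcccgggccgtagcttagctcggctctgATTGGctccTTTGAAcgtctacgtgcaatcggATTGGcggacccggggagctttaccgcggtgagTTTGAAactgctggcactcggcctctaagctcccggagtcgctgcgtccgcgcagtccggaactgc
Prc1: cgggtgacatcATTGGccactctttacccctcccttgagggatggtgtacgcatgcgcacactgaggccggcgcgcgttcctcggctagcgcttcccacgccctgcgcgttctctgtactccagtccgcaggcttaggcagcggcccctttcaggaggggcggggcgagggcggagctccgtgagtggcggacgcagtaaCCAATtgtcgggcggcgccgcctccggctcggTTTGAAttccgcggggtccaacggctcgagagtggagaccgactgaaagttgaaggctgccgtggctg
Spc25: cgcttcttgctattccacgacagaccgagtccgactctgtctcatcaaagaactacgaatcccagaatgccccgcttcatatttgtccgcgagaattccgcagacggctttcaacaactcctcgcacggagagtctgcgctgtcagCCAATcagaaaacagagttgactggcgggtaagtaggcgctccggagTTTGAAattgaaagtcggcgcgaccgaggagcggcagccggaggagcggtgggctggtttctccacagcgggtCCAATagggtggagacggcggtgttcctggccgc

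**Figure D5:**
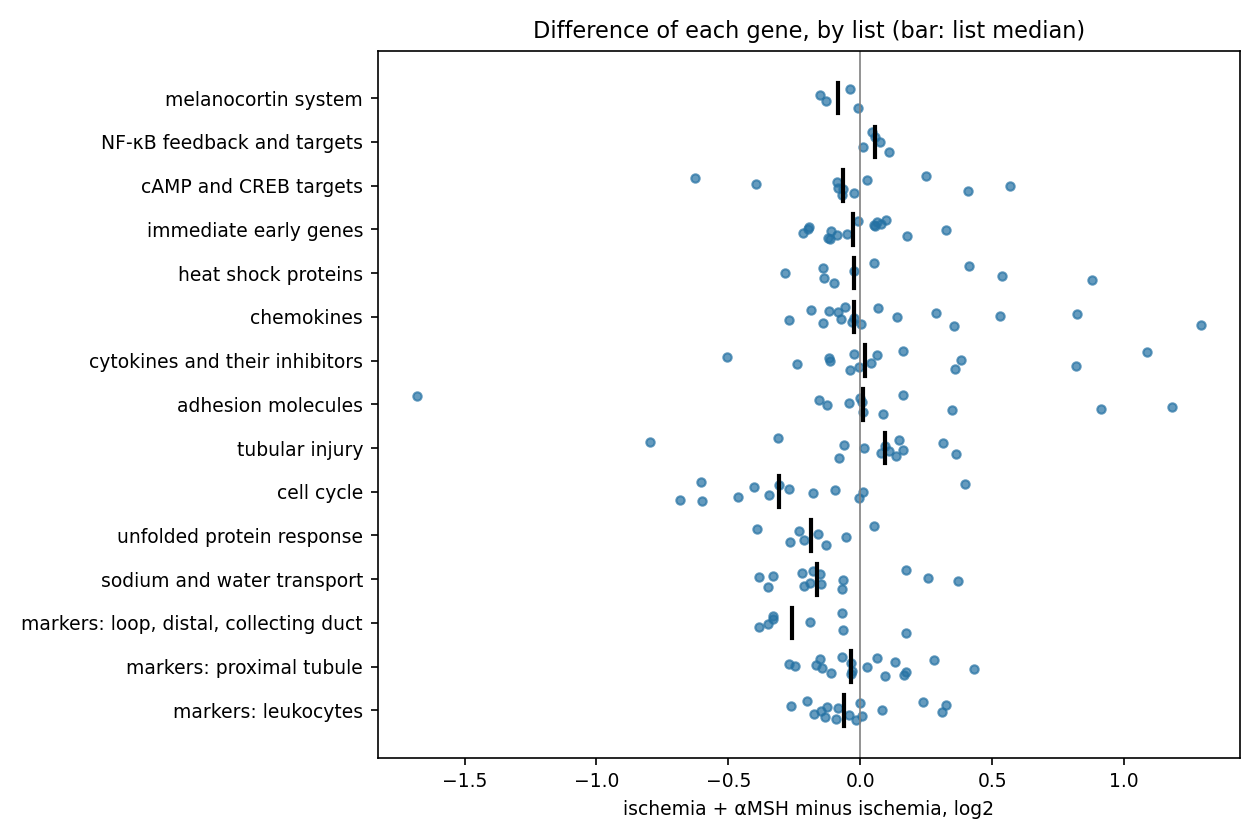
Each point is a tested gene, placed by its difference between αMSH and ischemia rats on the log2 scale, with 1 row per gene list and a bar at the list median. The cell cycle bar lies farthest from 0, at -0.31, while the chemokine, cytokine and adhesion lists have medians near 0 and single genes far out on either side.

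Across the 6444 gene symbols of the array, 126 genes met the rule of no overlap, an unadjusted p under 0.05 and a mean above the floor. Of these 35 were higher and 91 lower with αMSH. Over all probes an unadjusted p under 0.05 alone gave 165 higher and 177 lower, and no overlap alone gave 284 and 350. The full rule was not counted over all probes, so the 35 and 91 have no like background. The transcription factor gene Klf7 stood at 0.513, 0.662 and 0.596 against 0.333, 0.365, 0.369 and 0.33, a difference of 0.75 ± 0.18. It rose over normal rats in both groups, by 0.67 and 1.43. Sox4 stood at 0.207, 0.281 and 0.248 against 0.143, 0.134, 0.184 and 0.116, and its second, dimmer probe gave 0.16 ± 0.18. Tcf7, a transcription factor of Wnt signalling, stood at 0.199, 0.29 and 0.133 against 0.118, 0.119, 0.113 and 0.1, all close to the floor. Its difference of 0.82 ± 0.26 was 0.54 without αMSH rat 2, 0.51 on the log2(value + 0.1) scale, and 1.18 and 0.17 on the 2 array sides. Id1, which blocks helix-loop-helix factors, differed by 0.48 ± 0.23. Lrp5, a Wnt co-receptor, stood at 0.62, 0.662 and 0.55 against 0.398, 0.418, 0.285 and 0.268, a difference of 0.86 ± 0.24. Apol9a, of the apolipoprotein L family, had the largest difference of the 15 at 0.97 ± 0.24, of which αMSH rat 1 held most, at 0.5 against 0.198 and 0.195 in its group and 0.115 to 0.154 in the ischemia rats. Without that rat the difference was 0.52. Hspa4, a chaperone of the Hsp110 family, was not overlapping at 2.42, 2.66 and 3.15 against 2.4, 2.24, 1.06 and 0.85, but the low ischemia rats were those of 1 array side, and the difference was 1.42 on that side and 0.44 on the other. The calcium-binding gene Cabp1, the Polycomb gene Cbx6 and the kinase gene Hipk2 differed by 0.71, 0.54 and 0.50.

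Edn1, the vasoconstrictor endothelin, and Hk2, a glucose-phosphorylating hexokinase, rose after ischemia and lay higher still with αMSH. Edn1 stood at 2.4, 1.68 and 1.68 against 1.59, 1.31, 1.54 and 1.46, with normal rats at 0.199 to 0.369 and a difference of 0.36 ± 0.17 that was 0.19 without αMSH rat 1. Hk2 stood at 0.408, 0.394 and 0.377 against 0.238, 0.313, 0.361 and 0.276, with normal rats at the floor and a difference of 0.42 ± 0.14. Neither difference was called. A second Edn1 probe gave 0.48 ± 0.21 with groups that overlapped through ischemia rat 3. G6pc1, the glucose-6-phosphatase of the proximal tubule, stood at 25.7, 40.3 and 29.8 against 22.9, 24.2, 24 and 22, a difference of 0.43 ± 0.25 that was 0.25 without αMSH rat 2. With normal rats at 27 to 33, the αMSH rats lay near normal and the ischemia rats below. Hspb8, a small heat shock protein, differed by 0.54 ± 0.22, but by -0.02 on 1 array side and 1.13 on the other.

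Of the genes lower with αMSH, Ccn1 and Cldn3 had risen after ischemia. Ccn1, a matrix-associated signalling protein, stood at 3.73, 2.17 and 2.94 against 7.14, 5.8, 3.79 and 3.98, with normal rats at 0.847 to 1.14. Its rise over normal was 2.40 ± 0.27 without and 1.60 ± 0.29 with αMSH, and the difference between the groups was -0.80 ± 0.27. On the 2 array sides that difference was -0.45 and -1.13. Cldn3, a claudin of tight junctions, stood at 1.99, 1.53 and 2.41 against 3.38, 2.75, 3.08 and 4.2, a difference of -0.77 ± 0.28 that was -1.04 on 1 array side and -0.34 on the other. It rose over normal by 1.53 ± 0.28 without αMSH and was not called with it, at 0.76 ± 0.30. RT1-Da, the rat MHC class II alpha chain, stood at 10.6, 11.6 and 9.92 against 18, 14.9, 15.1 and 21.9, with 19.9 to 28.1 in normal rats. The difference was -0.70 ± 0.23 and similar on both sides, at -0.72 and -0.72. Cd74, the invariant chain that accompanies class II, overlapped at 31.4 to 41.2 and 36.6 to 44.9. The mitochondrial thiolase Acaa2, of fatty acid oxidation, stood at 33.7, 44.4 and 31.1 against 51.6, 55.1, 46.3 and 48.1, a difference of -0.48 ± 0.15, and it fell below normal by 0.68 ± 0.16 in the αMSH rats. Ypel4 had the largest difference of all genes named, -2.10 ± 0.69, but it came from ischemia rats 1 and 2 at 1.66 and 1.31. Ischemia rats 3 and 4 were at 0.149 and 0.218 and the αMSH rats at 0.102 to 0.138, so that the difference was -3.58 on 1 array side and -0.61 on the other.

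Some further genes were lower in every αMSH rat. Col1a1, the fibrillar collagen chain, stood at 3.32, 3.45 and 3.22 against 3.83, 4.68, 4.15 and 4.66, a difference of -0.37 ± 0.13. Its second probe gave -0.50 ± 0.19, again with no overlap. Gpm6b, a membrane glycoprotein gene, stood at 0.238, 0.218 and 0.231 against 0.374, 0.35, 0.358 and 0.341, both groups tight, with -0.62 and -0.65 on the 2 array sides. Col26a1, a further collagen gene, stood at 0.178, 0.161 and 0.176 against 0.23, 0.346, 0.292 and 0.412, and its difference of -0.87 ± 0.29 was -0.35 with the floor at 0.25. Csad, of taurine synthesis, stood at 2.45, 2.33 and 2.73 against 2.88, 3.36, 4.85 and 3.84. The Csad difference was -0.86 on 1 array side and -0.19 on the other.

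The unfolded protein response genes, which rose over normal in 5 of 8 cases in each group, were lower with αMSH in 7 of 8, with a median of -0.19. That median was -0.28 on 1 array side and -0.01 on the other. Asns, the asparagine synthetase, parted the groups at 2.64, 2.98 and 3.11 against 3.15, 3.42, 3.3 and 3.6, a difference of -0.21 ± 0.09, while its second, dimmer probe gave -0.06 ± 0.21 with overlap. Ppp1r15a, which restarts translation after stress, had the largest difference of that list, at -0.39 ± 0.26 with overlap. Of 18 genes of the p53 and apoptosis list 13 were lower, among them Bcl2l1, the survival gene of the Bcl-2 family, at -0.44 ± 0.21, whose groups overlapped and whose second probe gave -0.28 ± 0.27. Without αMSH rat 2 the Bcl2l1 difference was -0.28, and the median of that list was -0.18 on 1 array side and -0.01 on the other. Of 14 sodium and water transport genes 11 were lower and 3 higher, with a median of -0.17. Scnn1g, a subunit of the epithelial sodium channel, was below every ischemia rat in each αMSH rat, at 0.73 to 0.771 against 0.843 to 1.17. Slc9a3, the sodium-hydrogen exchanger of the proximal tubule, was above, at 4.77 to 5.12 against 3.45 to 4.05, a difference of 0.37 ± 0.31. Markers of the nephron beyond the proximal tubule, from Henle's loop to the collecting duct, were lower in 7 of 8 cases with a median of -0.26, and proximal tubule markers were split 8 and 10 with a median of -0.03. None of these genes was called, and on the 2 array sides the median of the loop and distal list was -0.28 and -0.03.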

How the data were processed

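The deposited values are in an unusual unit, read from the values themselves: the log2 of a deposited value is a linear intensity divided by about its array's median (array medians 0.999 to 1.0), and a deposited 0.5 is a fill value, here missing (0.97%). Labelling followed the CodeLink protocol with biotin per the labels; the sources used here do not give scanner, background correction or scaling. Intensities were divided by the array median, floored at 0.1 and brought to log2, and 2 arrays of a rat were averaged. The values of sham rat 3 were moved by 2 lines, which raised its correlation with the other arrays from 0.0652 to 0.984.

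All 31 rats in 10 groups were fitted with limma 3.58.1 (R 4.3.3; lmFit, eBayes, 21 residual degrees of freedom), with Benjamini-Hochberg adjustment over the probes tested, those with at least 2 rats in each group and 2/3 of all rats measured and 3 rats above the floor. The fit was tested on simulated data. A gene was represented by its brightest probe. Named genes were up to 15 in each direction with no overlap of groups, an unadjusted p under 0.05 and a mean above the floor by 0.5 log2, all measured melanocortin genes, the extreme members of each of 30 lists and those at an unadjusted p under 0.05, the 12 genes that rose and 8 that fell most at 8 h, and a short set of injury genes. The members and lists were chosen with earlier results of these data known. Alternatives were another scaling, floor, filter, set of rats, variance model and block, each rat left out in turn and, added after seeing the data, the array side. The number of arrays limits the precision.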

Additional observations from a re-analysis of the deposited data

Results flagged for a closer look

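In the 4 ischemia rats the highest or lowest value of 139 genes and list medians was set against the other values, with a test that chance passes in about 1 of 20 groups; 8 (5.76%) stood out. Ischemia rat 4 was high in Bdkrb2 (0.849 times the array median), Cgn (1.69), Csf2 (0.406, the others at the floor) and Ppp2r2d (1.35). Ischemia rat 2 was high in Ccna2 (0.992) and low in Asrgl1 (4.74). Ischemia rat 3 was high in Mc5r (0.103, the others at the floor) and in the median of the markers from Henle's loop to the collecting duct (2.28 on the log2 scale). Ischemia rat 3, which had the highest Selp, Cxcl1 and Ccl2 of the 7 rats, did not pass this test in those genes.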

How the results depend on the processing

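The count of 0 probes called between αMSH and ischemia held under 17 of 21 alternatives, among them the replicate block (0 probes). It was 1 with the groups compared alone, 1 with the array side added to that fit, and 0 to 2 with single rats left out. Same-numbered rats correlated at -0.122, -0.185 and -0.324 in their deviations from the group mean. Each such pair lay on opposite array sides, so these values cannot tell whether the rats were paired. Against normal rats, the replicate block gave 486 calls for ischemia and 365 for αMSH, only probes above the array median 839 and 729, sham rat 3 as deposited 300 and 243, and the αMSH count was 715 with the groups compared alone and 784 to 1283 with single rats left out. Under the replicate block 119 of the ischemia calls and 42 of the αMSH calls were lower. At an unadjusted p under 0.05 the probes between the groups numbered 62 to 817. The lowest count came with sham rat 3 as deposited. The highest came with the groups compared alone and the array side added, and without that term it was 542. The share of intervals within 2-fold was 63.6% to 97.4%. The cell cycle median stayed negative, from -0.24 to -0.51, the latter with 2 genes above the array median. Among 114 named genes 2295 of 2314 alternative values moved by less than 1 SD between rats; at a floor of 0.25 the differences of dim genes shrank, as for Sox4 to 0.06 and Pcdh19 to 0.10. Probes near the floor, and 3 against 4 rats, limit what these arrays can show.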

Other observations

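The probe AW141286, which has no gene name here, was the one called when the 7 rats were fitted alone (-1.95, adjusted p = 0.000129 in limma). It lay at the floor in all 3 αMSH rats and at 0.346 to 0.42 in the 4 ischemia rats, at least 3.87-fold lower with αMSH. Across the series it was either near the floor or clearly above it in most groups. Of the 24 other rats 10 were at the floor, among them normal rats 1 and 11, 2 of 3 sham rats and 2 of 4 volume depletion rats, while normal rats 2, 3 and 12 stood at 0.491, 0.556 and 0.462. In the fit of all rats its difference had an adjusted p of 1.0. The on or off state thus differed between untreated rats too, and its source was not tested.

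The 2 unnamed probes called without αMSH rat 3 were AI234119 and AI412612. AI412612 stood at 0.281 and 0.766 in αMSH rats 1 and 2, at 0.124 in αMSH rat 3 and at 0.1 to 0.183 in the ischemia rats.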
